A study of Mus musculus with 56 samples.

Results

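The inhibitory receptors described here were 8 genes, Pdcd1, Lag3, Tigit, Havcr2, Ctla4, Cd160, Btla and Cd200, found by Ensembl identifier among the 55359 genes of a raw count table. All 8 were in the table, and all 8 passed the filter on low counts that 19659 genes passed. RNA had been sequenced from CD8+ T cells of C57BL/6 female mice that bound the OVA:Kb tetramer, the fetus/graft-specific T cells (T_FGS), pooled from spleen and lymph nodes. The 7 groups held 30 samples. Naive mice (3 samples) had received no graft and had not been mated, and Sensitized mice (4 samples) had rejected a skin graft from the 2W-OVA.BALB/c strain, a fully allogeneic donor that expresses the OVA model antigen throughout. Naive+Pregnancy mice (N+P) had been mated with 2W-OVA.BALB/c males, giving a semi-allogeneic pregnancy, and Sensitized+Pregnancy mice (S+P) had rejected the graft before the same mating. Mice were young adults, and those that had been mated were taken after birth. Cells of post-partum mice had been sorted by surface protein into N+P C1 (PD1-, 3 samples), N+P C5 (PD1+CD73+, 3 samples), S+P C4 (PD1-, 6 samples), S+P C5 (PD1+CD73+, 6 samples) and S+P C7 (PD1+CD73-, 5 samples). The labels of Naive and Sensitized samples name no gate, while the paper describes sorting every group into its commonest phenotypic subsets. The study's methods describe spleens and lymph nodes of single mice, but no label ties a sample to a mouse, so every p-value below measures the spread between these samples. Each library had been made from 200 sorted cells, and in such bulk RNA fewer cells that express a gene and less of its RNA per cell cannot be told apart.

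Inhibitory receptors are surface proteins that lower T cell activation when their ligands are bound. T cells display several of them soon after stimulation through the antigen receptor, and keep them displayed where antigen persists, as in chronic infection, tumours and tolerance. PD-1 (Pdcd1), CTLA-4 (Ctla4) and BTLA (Btla) belong to the CD28 family, of which CTLA-4 competes with CD28 itself for CD80 and CD86. LAG-3 (Lag3) is a CD4-like receptor that binds MHC class II, TIGIT (Tigit) binds the nectin-like protein CD155, and TIM-3 (Havcr2) has galectin-9 and phosphatidylserine among its ligands. CD160 (Cd160) and BTLA share the ligand HVEM, and CD200 (Cd200) is itself a ligand, for the receptor CD200R on myeloid and some lymphoid cells.

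On GRCm39, the build the count files use, Pdcd1 (ENSMUSG00000026285) lies on the minus strand at chr1:93966027-93980312, Ctla4 (ENSMUSG00000026011) on the plus strand at chr1:60926159-60954991, and Lag3 (ENSMUSG00000030124) on the minus strand at chr6:124881320-124888765. Havcr2 (ENSMUSG00000020399) lies on the plus strand at chr11:46345673-46374149 and Cd160 (ENSMUSG00000038304) on the minus strand at chr3:96706079-96736667. The exons of Cd160 overlap those of Pdzk1 on the other strand by 68 bases, and since the strand setting of the counting is not given in the sources used here, reads from those bases could belong to either gene. Chromosome 16 holds the other three, Tigit (ENSMUSG00000071552) at chr16:43469100-43484509 on the minus strand, Btla (ENSMUSG00000052013) at chr16:45044475-45078033 on the plus strand, and Cd200 (ENSMUSG00000022661) at chr16:45202470-45229594 on the minus strand. Cd200 lies 124 kb from Btla, and Tigit 1560 kb from Btla.

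The promoters of Pdcd1, Tigit, Cd200 and Btla are printed because NFAT, the factor that antigen receptor signals carry to the nucleus, is known to act on Pdcd1, because Tigit and Cd200 are the members with the lowest adjusted p in memory cells after pregnancy, and because Btla is the chromosomal neighbour of Cd200 with a different pattern. Each window runs from 250 bases before to 50 after the annotated start, read 5′ to 3′ on the gene's strand from RefSeq on GRCm38.p6, a build other than that of the counts. Capitals mark the NFAT core GGAAA on either strand (TTTCC where it lies on the other strand). The windows are chr1:94052504-94052803 (minus strand) for Pdcd1, chr16:43664135-43664434 (minus strand) for Tigit, chr16:45409004-45409303 (minus strand) for Cd200 and chr16:45224087-45224386 (plus strand) for Btla.
Pdcd1: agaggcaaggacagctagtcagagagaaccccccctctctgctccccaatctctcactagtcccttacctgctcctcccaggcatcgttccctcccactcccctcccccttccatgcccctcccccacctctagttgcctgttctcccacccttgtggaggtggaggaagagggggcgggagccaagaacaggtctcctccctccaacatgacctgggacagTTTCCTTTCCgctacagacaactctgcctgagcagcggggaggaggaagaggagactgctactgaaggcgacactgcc
Tigit: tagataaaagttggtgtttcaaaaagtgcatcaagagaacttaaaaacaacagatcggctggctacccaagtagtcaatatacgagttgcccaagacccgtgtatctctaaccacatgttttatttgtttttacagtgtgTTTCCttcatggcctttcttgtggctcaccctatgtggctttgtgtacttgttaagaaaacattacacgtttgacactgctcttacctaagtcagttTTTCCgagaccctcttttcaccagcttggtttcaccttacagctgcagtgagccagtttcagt
Cd200: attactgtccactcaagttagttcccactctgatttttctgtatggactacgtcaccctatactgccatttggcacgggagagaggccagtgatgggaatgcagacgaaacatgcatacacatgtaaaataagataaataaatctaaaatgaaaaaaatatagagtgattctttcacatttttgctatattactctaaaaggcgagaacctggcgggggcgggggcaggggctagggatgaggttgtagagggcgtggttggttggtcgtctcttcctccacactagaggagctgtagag
Btla: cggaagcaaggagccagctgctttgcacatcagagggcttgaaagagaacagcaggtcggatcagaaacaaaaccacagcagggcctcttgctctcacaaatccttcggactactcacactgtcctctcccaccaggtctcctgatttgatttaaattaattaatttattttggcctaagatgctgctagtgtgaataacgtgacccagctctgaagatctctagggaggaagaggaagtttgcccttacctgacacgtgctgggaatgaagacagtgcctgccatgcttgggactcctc

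The Pdcd1 and Tigit windows each held 2 NFAT cores, and those of Cd200 and Btla held none. RefSeq entries were matched for 7 of the 8 members (Lag3 had none in the table), in 8 windows since Cd160 has 2 starts. An NFAT core stood in 4 of the 8 windows, those of Pdcd1, Tigit, Ctla4 and 1 start of Cd160, against 61.3% of 32851 promoter windows of all genes. The AP-1 motif TGANTCA was found in the Havcr2 window alone, against 7.81% of all windows. The RUNX motif TGTGGT stood in 5 of the 8 windows, those of Tigit, Havcr2, Btla and both starts of Cd160, against 16.8%. Both strands were searched for each motif, no motif contains another, and a match is only a match of letters.

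The 56 libraries held 6636532 to 32625243 counted reads, and the summed samples 15547934 to 54809406. Levels are given as CPM, counts scaled by library total and TMM factor, and a limit of 3 counts corresponded to 0.0539 to 0.298 CPM depending on the sample; such limits cover counting error only. S+P C4 replicate 2, S+P C4 replicate 3 and S+P C7 replicate 3 had 8002, 7436 and 7879 genes detected, all under 9000, and results are given with and without these 3 samples. S+P C4 replicate 3 had only 1 member over 3 counts, Ctla4. One library was deposited with the same counts under a Naive and an S+P C4 label and was left out of both, and a nearly identical pair of S+P C7 libraries (r = 0.9986) was averaged into replicate 1. Summed CD8 T cell markers ran from 4489 to 8785 CPM in the 30 samples, whereas B cell markers stayed at or under 62.8 CPM and the CD4 and Foxp3 transcripts at or under 4.45 CPM. Markers that moved with a sample or group were the erythroid genes in S+P C7 replicate 3 (19857 CPM) and S+P C4 replicate 3 (418 CPM), the myeloid list in Sensitized replicate 1 (356 CPM), and the NK list, which was at or under 0.0823 CPM in Naive samples, 53.3 to 126 in Sensitized samples and up to 328 in an S+P C7 sample, nearly all of it Klrb1c in the Sensitized samples. Within the myeloid list Cd68, which encodes a lysosomal protein of macrophages, stood apart by group, at 26.4 to 79.0 CPM in S+P C5 and up to 81.6 in S+P C7 (0 in replicate 3) against 3.60 to 12.9 in Sensitized, 4.68 to 15.3 in N+P C5 and 0 to 20.9 in S+P C4, while Lyz2 and Fcgr3 of the same list had 0 counts in every S+P C5 sample. The dendritic list ran up to 99.5 CPM in Sensitized and up to 390 in S+P C7. The part of these cells in the results was not tested.

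Because only 200 cells entered a library, the 2 libraries made from a sample were compared for each member. In the 23 samples with 2 libraries there were 184 pairs of values, of which 158 had both values over 3 counts, with a median difference of 1.35-fold and a largest of 28.4-fold (Cd200 in a Naive sample). In 14 pairs one library was at or under 3 counts while the other had more than 30. Those 14 were 4 of Pdcd1, 4 of Cd200, 2 of Tigit, 2 of Havcr2, 1 of Lag3 and 1 of Btla, while Ctla4 and Cd160 had none. Havcr2 was at the limit in both libraries in 6 samples.

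**Figure D1:**
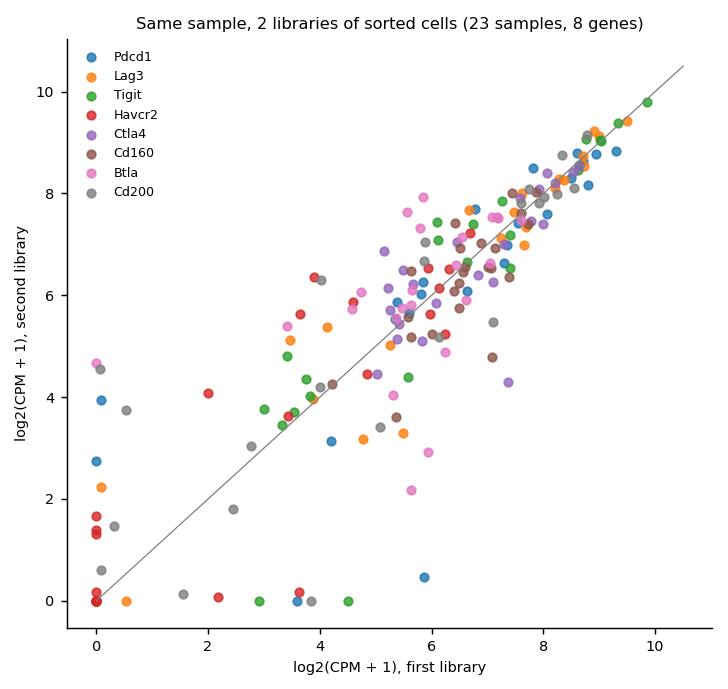
Each point is 1 of the 8 genes in 1 of the 23 samples with 2 libraries, with log2(CPM + 1) of one library on the x axis and of the other on the y axis, and the line marks equality. Most points at higher levels follow the line, and the points along both axes are pairs with one library at or near 0, among which Pdcd1, Cd200, Tigit and Havcr2 are seen most.

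Per kb of exon length, which allows the genes to be compared with each other, the 8 receptors summed to 60.2 ± 11.5 CPM per kb in Naive cells (SD, n = 3) and 120 ± 5.95 in Sensitized cells (n = 4). The sum was 605 ± 163 for N+P C5 (n = 3), 1034 ± 437 for S+P C5 (n = 6) and 746 ± 553 for S+P C7 (n = 5). The PD1- subsets lay lower, at 109 ± 20.4 in N+P C1 (n = 3) and 277 ± 117 in S+P C4 (n = 6). The make-up of the sum differed as well as its size. In Naive cells Ctla4, Cd160 and Btla gave 31.3%, 27.0% and 26.3% of the summed per-kb level. In Sensitized cells Cd160 gave the largest share, 33.4%, followed by Pdcd1 with 20.6% and Ctla4 with 20.2%. In N+P C5, 4 genes contributed nearly evenly, with Lag3 at 21.3%, Pdcd1 at 19.5%, Tigit at 18.6% and Ctla4 at 17.8%. Tigit led in both PD1+ subsets of S+P mice, with 37.6% in C5 and 50.3% in C7, and also in S+P C4 with 32.7%. S+P C7 replicate 3 alone had 74.6%, and without the samples of few genes Tigit gave 44.2% in C7 and 37.8% in C4 (n = 4 each). Havcr2 gave at most 7.03%, in S+P C7, of which replicate 3 alone had 23.4%, and without that sample the mean share was 2.94% (n = 4).

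**Figure D2:**
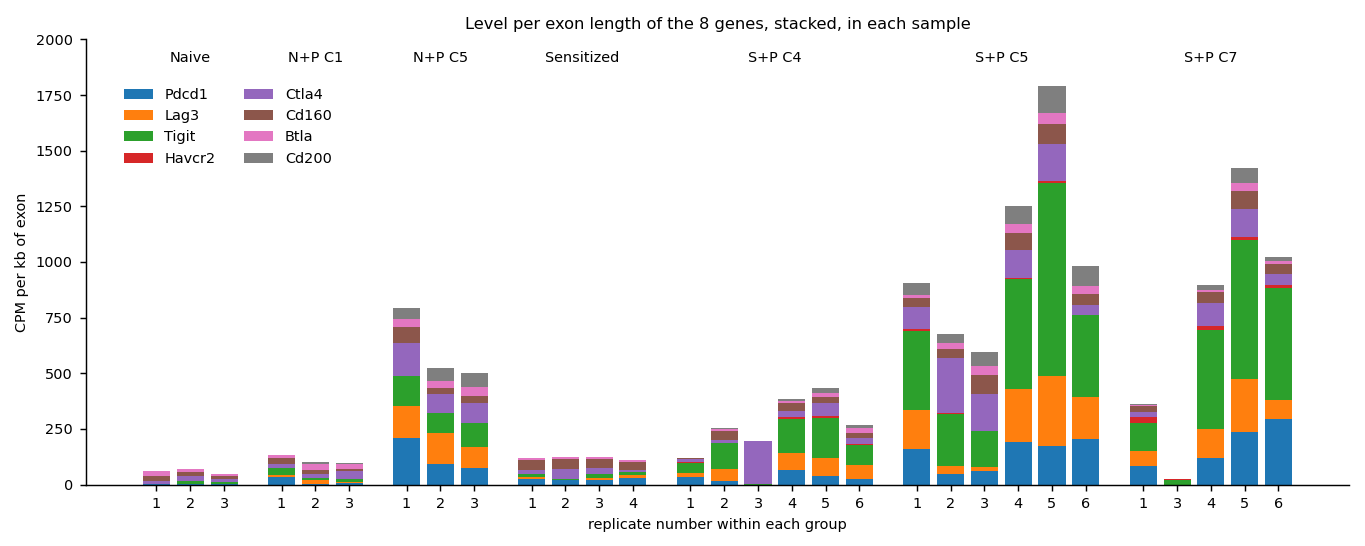
Bars show the CPM per kb of exon (y axis, linear from 0) of the 8 genes stacked in each of the 30 samples, by group and replicate number (x axis). N+P C5, S+P C5 and S+P C7 stand above the Naive and Sensitized bars except S+P C7 replicate 3, which sums to 26.4, and Tigit (green) takes the largest part of most S+P bars.

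Pdcd1 encodes PD-1, on whose surface level the post-partum cells were gated, so its direction between PD1+ and PD1- subsets was set by the sort. Between PD1+ subsets and unmated cells, gate and pregnancy cannot be told apart for this gene. In Naive cells its CPM was 1.73, 6.66 and 2.19, and in Sensitized cells 49.4, 42.7, 41.9 and 59.3. Its values were 68.4, 6.27 and 11.9 in N+P C1, and N+P C5 gave 415, 178 and 143. Every Sensitized sample thus lay above every Naive sample, and every N+P C5 sample above both. S+P C4 ran from 0 through a median of 54.7 to 131, S+P C5 from 90.3 through 326 to 405, and the S+P C7 samples gave 167, 0.0467, 235, 466 and 578. S+P C5 lay wholly above the Sensitized samples, while S+P C7 overlapped them through replicate 3 alone.

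Ctla4 had counts in every sample except S+P C7 replicate 3. Its CPM was 35.2, 59.3 and 37.9 in Naive, 43.1, 98.1, 61.6 and 27.3 in Sensitized and 46.1, 45.9 and 83.5 in N+P C1, which are 3 overlapping groups. N+P C5 gave 349, 197 and 213, above all of these. S+P C5 ran from 99.9 through a median of 339 to 576, S+P C4 from 30.1 through 65.3 to 455, and S+P C7 gave 55.6, 0, 250, 295 and 117. The 455 belonged to S+P C4 replicate 3, one of the samples with few genes, and the next sample of that group had 135.

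Btla, the third CD28-family gene, had no low group among unmated mice, with 80.7, 56.5 and 46.4 CPM in Naive and 46.9, 36.9, 36.1 and 37.8 in Sensitized cells. N+P C1 gave 43.7, 113 and 88.4, and N+P C5 gave 138, 115 and 156. S+P C5 ran from 53.0 through a median of 156 to 185, all above the Sensitized samples. S+P C4 ran from 0 through 31.5 to 95.8 and S+P C7 gave 13.5, 0.747, 29.3, 137 and 59.998, both spanning the Sensitized values. Cd160, which shares HVEM with BTLA, gave 57.7, 43.0 and 28.6 CPM in Naive and 114, 120, 103 and 90.1 in Sensitized cells, without overlap. N+P C1 gave 73.5, 46.5 and 17.4, and N+P C5 gave 181, 71.9 and 87.9. S+P C5 ran from 109 through 162 to 244, S+P C4 from 0 through 64.8 to 111, and S+P C7 gave 72.0, 0.327, 131, 209 and 114. Both PD1+ subsets of S+P mice overlapped the Sensitized samples for Cd160.

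Lag3 was near the limit of detection in Naive cells, at 1.23, 1.49 and 0.264 CPM, and low in Sensitized cells, at 14.5, 0, 20.9 and 26.6. N+P C1 gave 22.2, 34.4 and 16.1, all above Naive, and N+P C5 gave 311, 309 and 217. S+P C4 ran from 0 through a median of 132 to 179, S+P C5 from 42.3 through 406 to 703, and S+P C7 gave 148, 0, 285, 529 and 193. All 6 S+P C5 samples lay above all Sensitized samples, whereas S+P C4 and S+P C7 each had a sample at 0.

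Tigit gave 0.206, 11.1 and 9.07 CPM in Naive cells and 16.4, 4.85, 17.5 and 12.6 in Sensitized cells, which overlapped. Values of 30.03, 9.40 and 14.0 were found in N+P C1 and of 142, 98.4 and 109 in the N+P C5 samples. S+P C5 ran from 168 through a median of 378 to 907, S+P C4 from 0.198 through 108 to 185, and S+P C7 gave 130, 20.6, 468, 654 and 526. All S+P C5 and all S+P C7 samples, replicate 3 of S+P C7 included, lay above the highest Sensitized sample, and all S+P C5 samples lay above the highest N+P C5 sample.

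Havcr2, the gene of TIM-3, had the lowest mean level per kb of exon of the members in every group except S+P C7. It gave 0, 0 and 0.567 CPM in Naive and 0, 0, 6.07 and 0.0519 in Sensitized cells. N+P C1 gave 1.36, 0 and 0, and N+P C5 gave 10.6, 0.760 and 0.89998. Higher levels were found in the S+P subsets, where S+P C4 ran from 0 through 31.1 to 56.2 and S+P C5 from 0.841 through 23.8 to 57.8. S+P C7 gave 131, 30.1, 82.4, 69.1 and 70.9, the group with the highest mean (76.7 ± 36.2, SD, n = 5). In S+P C7 replicate 3, where Lag3 and Ctla4 had no counts, Havcr2 stood at 30.1 CPM. Without the samples of few genes its mean was 88.3 ± 29.0 in S+P C7 and 41.4 ± 12.995 in S+P C4 (SD, n = 4 each), and the lowest S+P C7 sample (69.1) then lay above the highest of S+P C4 (56.2) and of S+P C5 (57.8). These groups overlapped with replicate 3 included.

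Cd200 gave 0.823, 5.20 and 1.21 CPM in Naive and 3.58, 6.15, 0.273 and 7.84 in Sensitized cells. N+P C1 gave 1.17, 22.6 and 15.9, and N+P C5 gave 209, 238 and 244, with the smallest SD relative to the mean of any member in the PD1+ subsets. S+P C5 ran from 170 through a median of 292 to 492, S+P C4 from 0 through 29.8 to 92.4, and S+P C7 gave 12.5, 0.794, 98.8, 280 and 71.9. The S+P C5 samples lay above every sample of the Naive, Sensitized, N+P C1 and S+P C4 groups.

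**Figure D3:**
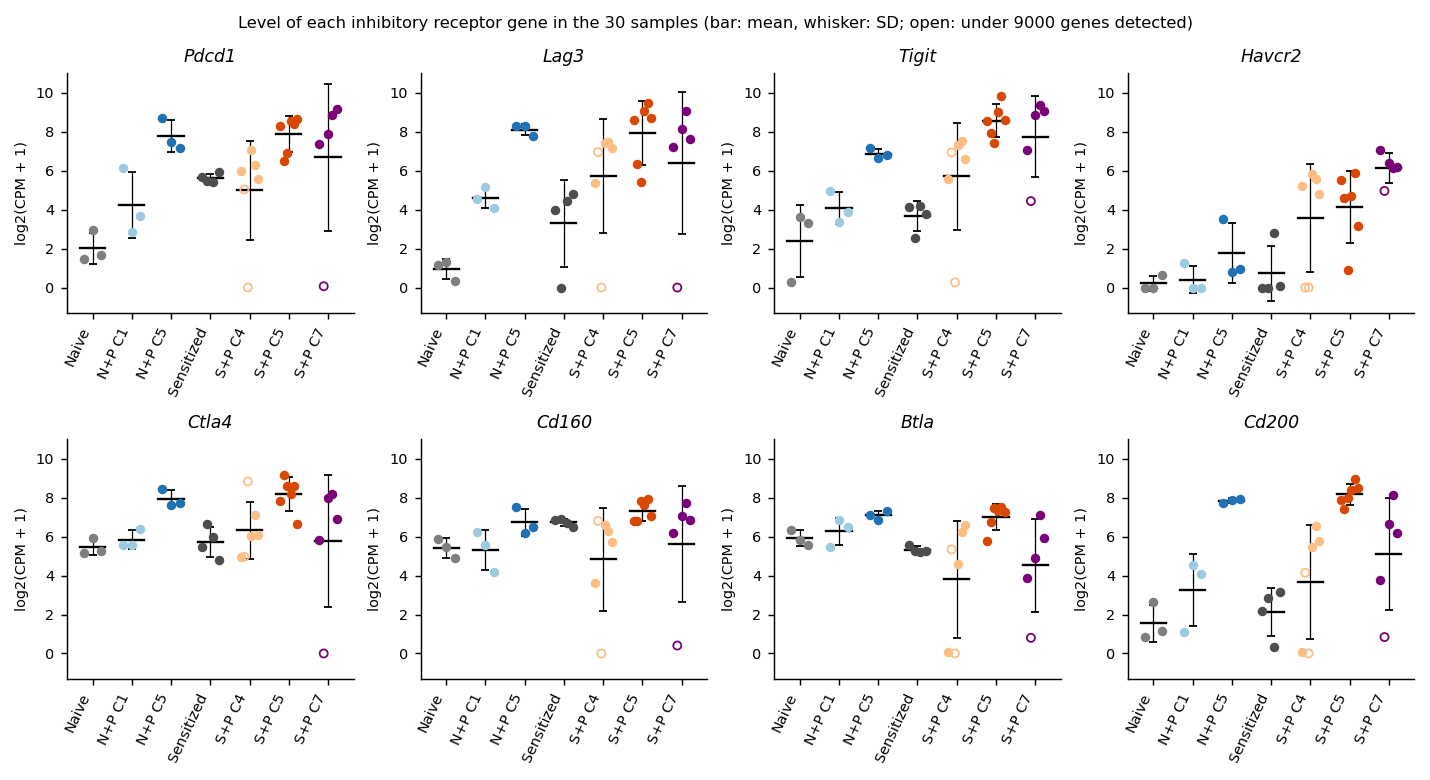
Points are the 30 samples, grouped on the x axis, with log2(CPM + 1) of each gene on the y axis; bars are means, whiskers SDs, and open points the 3 samples with under 9000 genes. Cd200, Lag3 and Tigit sit low in Naive and Sensitized cells and high in both PD1+CD73+ groups. Pdcd1 is low in Naive cells, intermediate in Sensitized cells and high in both PD1+CD73+ groups. Ctla4, Cd160 and Btla are present in every group, and Havcr2 is highest in S+P C7.

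In order of mean CPM, S+P C5 came first for 6 members, and S+P C7 first for Pdcd1 and Havcr2, and without the samples of few genes S+P C7 came first for Tigit too. Means of the 2 S+P subsets with such samples were mostly higher without them, for Tigit 445 ± 224 CPM in S+P C7 and 121 ± 62.3 in S+P C4, and for Cd200 116 ± 115 and 47.5 ± 38.1 (SD, n = 4 each), while Ctla4 in S+P C4 was 73.9 ± 43.7 in place of 130 ± 163. Neighbours in the order mostly overlapped. Exceptions without overlap between samples were Pdcd1 between N+P C5 and S+P C4 and Btla between N+P C5 and N+P C1. For Cd160 the order ran from S+P C5 (169 ± 59.6, SD, n = 6) through N+P C5, Sensitized, S+P C7, S+P C4 and N+P C1 to Naive (43.1 ± 14.5, n = 3), with each neighbouring pair overlapping.

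Sensitized against Naive cells asked what graft rejection alone left behind. None of the 8 members passed an adjusted p (FDR) under 0.1 with a log2 fold change over 0.9 in edgeR's quasi-likelihood test, which called 0.153% of the 19659 genes. At an unadjusted p under 0.05, 2 members were higher, against 3.85% of genes, and DESeq2 called 1 (Pdcd1), against 3.53% called higher. Pdcd1 had a log2 fold change of 3.77 ± 1.42 (SE; FDR 0.626 in edgeR, 0.0587 in DESeq2) and Lag3 3.95 ± 1.67 (FDR 0.626). Of the marker lists, Klrb1c of the NK list was higher in every Sensitized sample (53.3 to 126 CPM) than in any Naive sample (at most 0.0823). So were Itgax (29.8 to 84.3 against 0) and Xcr1 (2.52 to 12.4 against at most 0.189) of the dendritic list. Ncr1 of the NK list did not lie apart, and Flt3 of the dendritic list was at 0 CPM in every Sensitized sample. The part of these genes in the result was not tested. In 2 members, Pdcd1 and Cd160, all Sensitized samples lay above all Naive samples, against 3.78% of genes, and the member median was 1.11 on the log2 scale against 0.04 over all genes. Pdcd1 was called (FDR 0.00694) when the 3 samples of few genes were left out, which belong to neither group but enter the common estimate of spread, against 0.721% of genes called higher.

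N+P C5 against Naive cells compared the PD1+CD73+ subset after pregnancy with cells of unmated mice, neither having met a graft. Pregnancy and the sort gate cannot be told apart in this comparison. All 8 members were higher in every N+P C5 sample than in every Naive sample, against 7.4% of genes. Pdcd1, the gene of the sort gate, is included in this and the following counts, and its direction is not a finding. The edgeR test called none of the 8, against 0.0407% of genes (8 genes), although 5 members had an unadjusted p under 0.05 in the direction of N+P C5 (3.22% of genes) and DESeq2 called 4, Pdcd1, Lag3, Tigit and Cd200 (2.99% of genes called higher). The log2 fold change was 8.12 ± 2.06 for Lag3 (SE; edgeR FDR 0.273), 6.57 ± 1.87 for Cd200 (0.579), 6.12 ± 1.62 for Pdcd1 (0.359), 4.10 ± 1.24 for Tigit (0.754) and 2.52 ± 1.18 for Ctla4 (0.763). For Cd160 and Btla it was 1.40 ± 1.19 and 1.16 ± 1.34, and for Havcr2 4.41 ± 2.42 from levels that included zeros in Naive cells. The member median was 4.26 against 0.00 over all genes. Without the 3 samples of few genes, none of them in this comparison, edgeR called 5 members, Pdcd1, Lag3, Tigit, Ctla4 and Cd200, with FDR between 0.000108 and 0.0692 and a log2 fold change of 8.14 ± 1.39 for Lag3, against 0.614% of genes called higher. Leaving out S+P C4 replicate 3 alone, or S+P C7 replicate 3 alone, gave 2 called members, Pdcd1 and Lag3, in each case, against 0.219% and 0.102% of genes called in either direction.

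S+P C5 against Sensitized cells compared the PD1+CD73+ subset of memory cells after pregnancy with memory cells of unmated mice. Pregnancy and the sort gate cannot be told apart in this comparison. Tigit rose, with a log2 fold change of 5.07 ± 1.10 (SE), a ratio of mean levels of 33.7 and an edgeR FDR of 0.0891, and it was the only member called, against 0.0712% of genes called and 0.0305% called higher. The other members with an unadjusted p under 0.05 were Cd200 (6.10 ± 1.55, FDR 0.237), Lag3 (4.54 ± 1.47, 0.276), Havcr2 (4.11 ± 1.98, 0.373), Ctla4 (2.51 ± 0.98, 0.276) and Pdcd1 (2.50 ± 1.13, 0.331), so that 6 of the 8 were higher at that level, against 5.26% of genes. Havcr2 had a median of only 0.026 CPM in Sensitized cells, and 5 of the other 7 members were higher at that level. Btla and Cd160 had log2 fold changes of 1.81 ± 1.12 and 0.66 ± 0.94. In 6 members, the 8 without Havcr2 and Cd160, no sample overlapped, against 1.45% of genes. Pdcd1, the gene of the sort gate, is included in the counts of this comparison, and its direction is not a finding. DESeq2 called 3 members, Lag3, Tigit and Cd200, against 3.07% of genes called higher, and the member median was 3.31 against -0.01 over all genes. With the 3 samples of few genes left out edgeR called 5 members, Pdcd1, Lag3, Tigit, Ctla4 and Cd200, against 0.547% of genes called higher. Cd68 was higher in every S+P C5 sample than in any Sensitized sample as well (a lowest value of 26.4 against a highest of 12.9 CPM), and its part in the result was not tested.

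The call on Tigit depended on which samples entered the fit. It was lost when any one of 23 of the 30 samples was left out, which include every Sensitized and every S+P C5 sample, with the FDR then as high as 0.412 and the log2 fold change between 4.72 and 5.27. It held without Naive replicate 1, N+P C1 replicate 1 or 2, S+P C4 replicate 2 or 3, or S+P C7 replicate 1 or 3. Without S+P C4 replicate 3 the FDR was lowest, 0.00619, and Cd200 was called as well (FDR 0.0812), against 0.194% of genes called. The fold change of Havcr2 depended on Sensitized replicate 3, the one Sensitized sample with more than a trace of it (6.07 CPM), and without a single sample it ran from 3.69 to 10.2.

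S+P C7 against Sensitized cells compared the PD1+CD73- subset of S+P mice with memory cells of unmated mice, and here too pregnancy and gate cannot be told apart. No member was called by edgeR, against 0.0305% of genes, 5 members were higher at an unadjusted p under 0.05, against 7.38% of genes, and DESeq2 called 3, Tigit, Havcr2 and Cd200, against 2.61% called higher. Log2 fold changes were 4.81 ± 1.10 for Tigit (edgeR FDR 0.262), 5.64 ± 2.17 for Havcr2 (0.473), 4.38 ± 1.44 for Cd200 (0.473), 3.89 ± 1.44 for Lag3 (0.473) and 2.58 ± 1.16 for Pdcd1 (0.473). For Tigit and Havcr2 all 5 samples lay above all Sensitized samples, against 0.778% of genes. Apart from Havcr2, with a median of 0.026 CPM in Sensitized cells, 4 members stood at the unadjusted p and Tigit alone lay apart. Pdcd1, the gene of the sort gate, is among those 4, and its direction is not a finding. Without Sensitized replicate 3 the log2 fold change of Havcr2 was 11.8, and leaving out other single samples it was as low as 5.23. Ctla4, Btla and Cd160 had log2 fold changes of 1.32 ± 0.95, 0.29 ± 1.09 and -0.02 ± 0.96, and the member median was 3.24 against 0.00. Without the 3 samples of few genes, of which S+P C7 replicate 3 is one, edgeR called Pdcd1, Lag3 and Tigit, against 0.194% of genes called higher, and without S+P C4 replicate 3 alone it called Tigit (FDR 0.0171), against 0.0408% of genes.

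**Figure D4:**
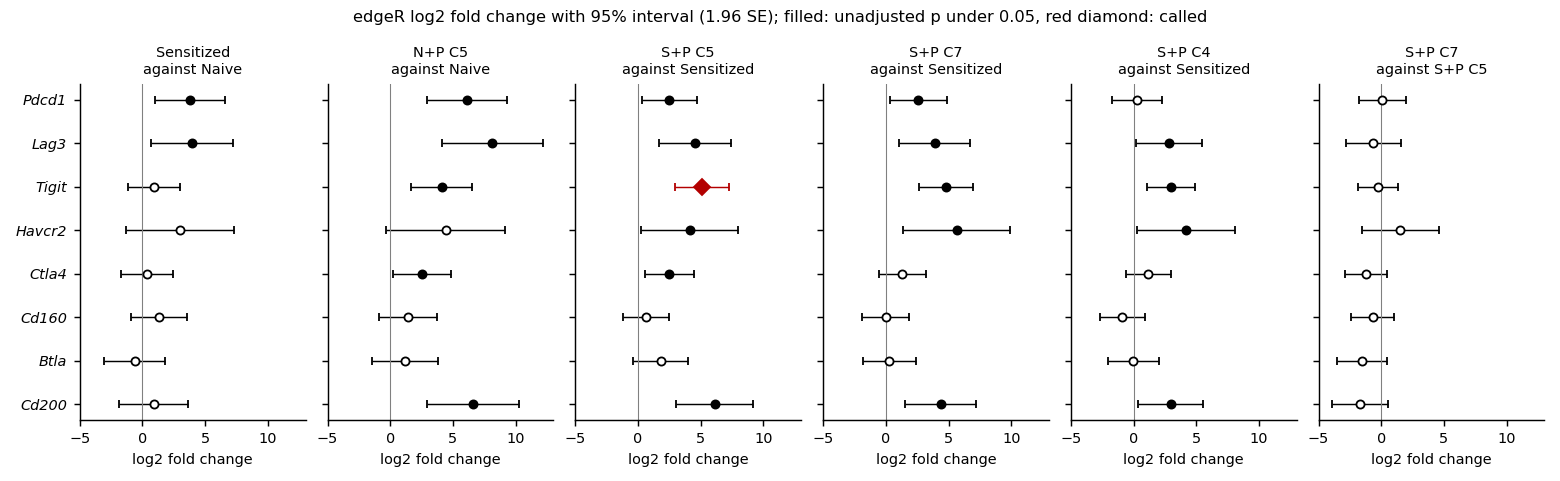
Points are edgeR log2 fold changes of the 8 genes (x axis) in 6 comparisons, with 95% intervals; filled points have an unadjusted p under 0.05 and the red diamond is the one member called, Tigit in S+P C5 against Sensitized. Lag3, Tigit and Cd200 stand to the right of 0 with intervals that exclude it in each comparison of a PD1+ subset with unmated cells, while the intervals of Cd160 and Btla include 0 in all 6.

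S+P C7 against S+P C5 compared the CD73- and the CD73+ subset of PD1+ cells, and the transcript of CD73, Nt5e, was at 0 to 54.2 CPM in S+P C7 and 21.6 to 170 in S+P C5, with overlap. No member was called in edgeR (0.0% of genes) or DESeq2 (1.87% of genes called higher). None had an unadjusted p under 0.05, against 10.1% of genes higher, and none lay apart without overlap, against 0.107%. Leaving out the 3 samples of few genes gave no call on any gene. The 95% interval of the log2 difference was -3.95 to 0.50 for Cd200 around -1.72, -3.51 to 0.47 for Btla around -1.52, and -1.50 to 4.56 for Havcr2 around 1.53. Same-numbered samples deviated together in this pair of groups, so that they were also compared number by number. Havcr2 was higher in S+P C7 in 5 of 5 numbers, and Lag3, Cd160, Btla and Cd200 were lower in 5 of 5, and both counts were 4 of 4 without replicate 3, whose S+P C7 sample has few genes. Tigit and Ctla4 were higher in 1 of 5 and Pdcd1 in 2 of 5. No share of all genes is given for these counts by number, so they are description. S+P C7 replicate 1 holds the averaged pair of libraries, labelled replicates 1 and 2, so its pairing by number is uncertain. With the replicate number as a block the log2 differences were 2.27 ± 0.83 for Havcr2 (p = 0.0343) and -3.06 ± 1.17 for Cd200 (p = 0.0403) in edgeR, and the FDR of each was 0.995, so that the block gave no call.

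**Figure D5:**
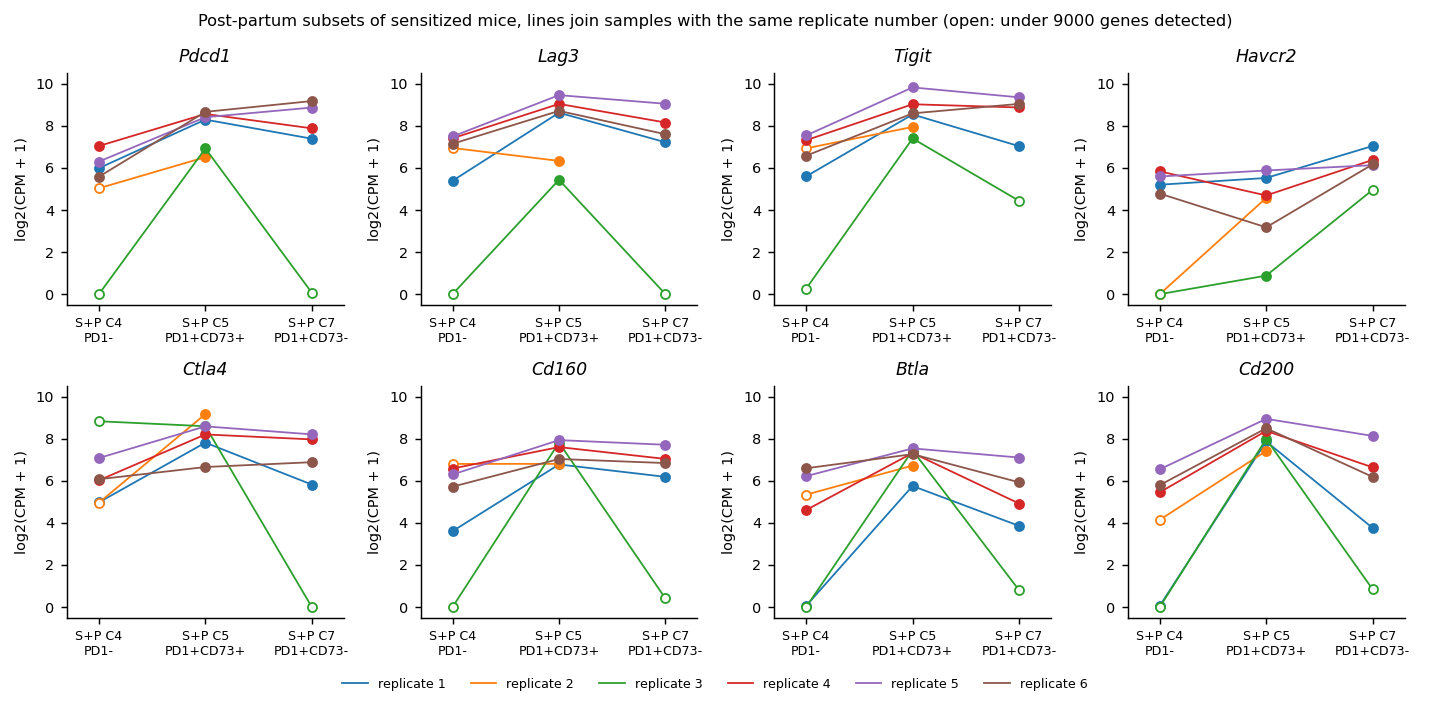
Lines join the S+P samples that share a replicate number across the PD1-, PD1+CD73+ and PD1+CD73- subsets (x axis), with log2(CPM + 1) on the y axis and open points for the samples with under 9000 genes. Most lines peak at S+P C5 for Lag3, Cd160, Btla and Cd200, and all 5 lines of Havcr2 go up from S+P C5 to S+P C7.

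The PD1- subsets were compared with unmated cells in the same way, and pregnancy and gate cannot be told apart there either. In N+P C1 against Naive no member was called by edgeR or DESeq2 (edgeR called 0.0% of genes), and 2 members had an unadjusted p under 0.05, Lag3 at 4.60 ± 1.76 on the log2 scale and Pdcd1 at 3.03 ± 1.40, against 1.86% of genes higher. Lag3 alone did not overlap, against 4.22% of genes, and the member median was 1.32 against 0.00; DESeq2 called 1.68% of genes higher. Pdcd1 rested on N+P C1 replicate 1 (68.4 CPM), without which its log2 fold change was 1.37 (p = 0.332 in edgeR), and over all single samples left out it ran from 1.37 to 3.88. With the doubly deposited library kept in Naive, 0 members had an unadjusted p under 0.05 in edgeR. In S+P C4 against Sensitized no member was called, against 0.00509% of genes, with 4 at an unadjusted p under 0.05, Havcr2 (4.17 ± 1.99), Tigit (2.98 ± 0.98), Cd200 (2.95 ± 1.31) and Lag3 (2.81 ± 1.34), against 4.16% of genes higher. Without Havcr2, whose median in Sensitized cells was 0.026 CPM, these were 3 of the other 7 members. The fold change of Havcr2 ran from 3.76 to 10.3 with single samples left out, the highest without Sensitized replicate 3. DESeq2 called Tigit (FDR 0.0304), against 2.02% of genes called higher, every member overlapped (0.0916% of genes were higher without overlap), and the member median was 1.99 against -0.14. Pdcd1, whose protein defines this subset as negative, had a log2 fold change of 0.27 ± 1.03. No member was called in either comparison without the 3 samples of few genes, of which 2 are S+P C4 samples, against 0.0972% and 0.0153% of genes called higher.

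Within post-partum mice the PD1+CD73+ subset was compared with its PD1- counterpart. Pdcd1 encodes the protein of this gate, so its direction in the counts below was set by the sort. Counts by replicate number are description, and no share of all genes is given for them. N+P C5 had more of all 8 transcripts than N+P C1 in 3 of 3 same-numbered samples, and 6 members did not overlap at all, against 5.48% of genes. No member was called by edgeR, against 0.00509% of genes, or by DESeq2, against 2.1% called higher, and 4 had an unadjusted p under 0.05, Cd200 (4.12 ± 1.66), Lag3 (3.52 ± 1.66), Pdcd1 (3.09 ± 1.40) and Tigit (2.71 ± 1.17), against 2.41% of genes higher. Without N+P C1 replicate 1 the log2 fold change of Pdcd1 was 4.75. With the replicate number as a block and only these 2 groups in the fit, edgeR called Lag3 (FDR 0.0273) and Tigit (FDR 0.0871), against 0.219% of genes called, although the labels do not state that a number marks a mouse. Leaving out the 3 samples of few genes gave no called member, against 0.0767% of genes called higher. S+P C5 had more than S+P C4 in 6 of 6 numbers for Pdcd1, Tigit, Cd160, Btla and Cd200, in 5 of 6 for Lag3 and Ctla4 and in 4 of 6 for Havcr2. Among the 4 numbers without an S+P C4 sample of few genes it was 4 of 4 for every member except Havcr2 (2 of 4). None was called by edgeR, against 0.0305% of genes. At an unadjusted p under 0.05 stood Cd200 (3.15 ± 1.12), Pdcd1 (2.23 ± 0.96) and Tigit (2.10 ± 0.80), 3 members against 7.63% of genes higher. Cd200 did not overlap, against 0.585% of genes, and was called by DESeq2 (FDR 0.0723), against 2.75% called higher. When the 3 samples of few genes were left out edgeR called Ctla4 (2.13 ± 0.49, FDR 0.0903), whose highest S+P C4 value was thereby left out, against 0.0869% of genes called higher. Havcr2 had nearly the same mean in both subsets, 26.5 ± 21.6 CPM for S+P C5 and 27.6 ± 23.6 for S+P C4 (SD, n = 6 each).

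S+P C5 against N+P C5 asked whether pregnancy left memory cells and previously naive cells of the same gate at different levels. No member was called by edgeR (0.0% of genes) or DESeq2 (1.74% called higher), none had an unadjusted p under 0.05 (2.16% of genes were higher), and Tigit alone did not overlap, against 0.966% of genes. Its log2 difference was 1.89 with a 95% interval of -0.15 to 3.93. The differences of the other members were 2.70 ± 2.07 for Havcr2, 0.57 ± 1.04 for Cd160, 0.41 ± 1.29 for Cd200, 0.37 ± 0.98 for Ctla4, 0.37 ± 1.32 for Lag3, 0.16 ± 1.13 for Pdcd1 and 0.02 ± 1.14 for Btla. No member was called without the 3 samples of few genes either, against 0.0256% of genes called higher. The interaction, the S+P C5 minus Sensitized difference less the N+P C5 minus Naive difference, was called for no member by edgeR, against 0.0254% of genes, or by DESeq2, against 3.91%, or without the 3 samples of few genes, against 0.138%. Pdcd1 was the only member under an unadjusted p of 0.05, at -3.61 ± 1.70 (FDR 0.738; 3.32% of genes were lower at that p), and Lag3 was at -3.58 ± 1.98. For Pdcd1 the levels behind that value were similar in both C5 groups (245 ± 148 and 274 ± 135 CPM, SD, n = 3 and 6) and different in the unmated groups, 3.53 ± 2.72 in Naive and 48.3 ± 8.07 in Sensitized (n = 3 and 4). In a fit with only these 4 groups, edgeR called Pdcd1 in the interaction, against 0.184% of genes. Both C5 groups had been gated as PD1+, so for Pdcd1 a different change with pregnancy cannot be told apart from the sort.

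Of the members' binding partners 14 genes were listed and 13 tested, all but Nectin2, and edgeR called none in any of the 11 contrasts, with 19 of the 143 tests at an unadjusted p under 0.05 (13 higher, 6 lower) against 8.64% of the tests over all genes. DESeq2 made 8 calls, 7 higher and 1 lower, on Cd80 in 4 contrasts, Fgl1 in 2 and Lgals3 in 2, and called 2.46% to 5.32% of genes in the 11 contrasts. The calls on Cd80 and Fgl1 had log2 fold changes of 18.8 to 24.4 in size. Each Cd80 call involved Naive or N+P C1, where Cd80 had no counts, so its size is not a usable estimate. Pdcd1lg2, which encodes the PD-1 ligand PD-L2, gave 44.0 ± 7.45 CPM in N+P C5 (SD, n = 3), 65.9 ± 25.6 in S+P C5 (n = 6), and 6.39 ± 4.88 in Naive (n = 3) and 5.42 ± 4.80 in Sensitized (n = 4). Its log2 fold change in S+P C5 against Sensitized was 3.60 ± 1.68 (edgeR FDR 0.348), with no overlap between samples. Lgals3, the gene of galectin-3, a ligand reported for LAG-3, gave 1.73 ± 2.95 CPM in Naive and 139 ± 95.6 in Sensitized (log2 fold change 6.32 ± 2.10, FDR 0.626). Cd80, a ligand of CTLA-4, had no counts in Naive samples and at most 59.8 CPM, in an S+P C4 sample, and Nectin3, a partner of TIGIT, at most 5.67 CPM, in a Sensitized sample.

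The edgeR test called none of the 5 activating counterparts in any contrast. At an unadjusted p under 0.05 stood 10 of 55 tests (5 higher, 5 lower), against 8.64% of the tests over all genes. DESeq2 called Icos higher and Cd226 lower in S+P C5 against S+P C4, beside the DESeq2 shares of all genes given above. Icos, a stimulatory relative of CTLA-4, gave 69.1 ± 8.80 CPM in Naive and 260 ± 12.3 in N+P C5 (SD, n = 3 each), and 139 ± 41.9 in Sensitized and 411 ± 189 in S+P C5 (n = 4 and 6). Its log2 fold changes were 1.91 ± 0.75 (edgeR FDR 0.763) and 1.56 ± 0.61 (0.276). Cd226, which competes with TIGIT for CD155, lay at 213 ± 55.9 CPM in Sensitized, 130 ± 34.5 in S+P C5, then 107 ± 83.1 in S+P C7 (n = 4, 6 and 5), with a log2 fold change of -0.99 ± 0.44 (FDR 0.473) in S+P C7 against Sensitized. Tnfsf14, an HVEM ligand, gave 6.70 ± 2.05 CPM in Naive and 42.8 ± 28.8 in Sensitized cells.

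Of the 12 other inhibitory receptors listed, edgeR called 1, in Sensitized against Naive alone, where it called 0.153% of genes. At an unadjusted p under 0.05 stood 13 of 132 tests (8 higher, 5 lower), near the 8.64% of the tests over all genes. DESeq2 made 7 calls, 6 higher and 1 lower, on Klrc1 in 4 contrasts, Klrg1 in 2 and Pecam1 in 1. Klrc1, which encodes the NKG2A chain of a receptor for Qa-1, rose from 1.67 ± 1.85 CPM in Naive to 603 ± 182 in Sensitized cells (SD, n = 3 and 4), by 8.49 ± 1.52 on the log2 scale with an edgeR FDR of 0.00548. In S+P mice its mean was 897 ± 316 CPM in the C4, 345 ± 83.6 in the C5 and 480 ± 413 in the C7 subset. Klrg1, a cadherin receptor of effector cells, was at 0.532 ± 0.893 CPM in Naive, 98.7 ± 26.2 in Sensitized and 0.0517 ± 0.0896 in N+P C5, so that N+P C5 had high Lag3 and Cd200 with almost no Klrg1. NK cells express both lectin genes too, and the NK list given above was higher in Sensitized than in Naive samples; its part in these values was not tested. Pecam1, an adhesion molecule that binds itself, gave 115 ± 37.4 CPM in Naive and 25.5 ± 16.6 in Sensitized cells, and Cd300a was above 3 counts in few samples, with a highest value of 10.3 CPM in a Sensitized sample.

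No signalling or turnover gene was called by edgeR in any contrast. At an unadjusted p under 0.05 stood 16 of 121 signalling tests (14 higher, 2 lower) and 2 of 55 turnover tests (both higher). Over all genes 8.64% of the tests stood at that p. DESeq2 called Sh2d1a higher in 3 contrasts and Fyn higher in 2, and no turnover gene. Ptpn11, the phosphatase SHP-2 that the tails of PD-1 and BTLA recruit, gave 24.8 ± 3.20 CPM in Naive and 178 ± 22.9 in N+P C5 (SD, n = 3 each), and 40.7 ± 18.7 in Sensitized and 207 ± 97.2 in S+P C5 (n = 4 and 6). Its log2 fold changes were 2.84 ± 1.20 (edgeR FDR 0.763) and 2.34 ± 0.97 (0.289), without overlap between samples in either. Sh2d1a, the adaptor SAP, gave 61.8 ± 1.24 CPM in Naive, 118 ± 21.7 in Sensitized, 138 ± 37.5 in N+P C5 cells and 414 ± 138 in S+P C5, where its log2 fold change against Sensitized was 1.81 ± 0.45 (FDR 0.205). The kinase gene Fyn was at 1.07 ± 0.35 in the same comparison (FDR 0.276). Of the turnover genes, Adam10, a protease that sheds LAG-3, gave 122 ± 35.4 CPM in Sensitized and 225 ± 119 in S+P C5, and Lrba, which keeps CTLA-4 from degradation, 21.4 ± 11.1 and 54.6 ± 25.8 (SD, n = 4 and 6).

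Across the 30 samples the members varied together in part. The highest Pearson correlation of log2(CPM + 1) between members was 0.89, for Lag3 and Tigit, followed by 0.88 for Pdcd1 and Lag3, and the lowest was -0.08, for Havcr2 and Btla. Without the 3 samples of few genes, Lag3 and Tigit had 0.90 and Cd160 and Btla went from 0.80 to 0.57. Ctla4 and Cd200 went from 0.64 to 0.85, and Ctla4 and Tigit from 0.42 to 0.73. These points share libraries, groups and the same sort gates and are given as description. Among 13543 protein-coding genes tested, the gene most like Pdcd1 was Nrp1 (r = 0.89), the most like Lag3 was Ptms (0.92), whose gene lies 1.26 kb from Lag3 on chromosome 6, and the most like Tigit was Lag3. The most like Cd200 was Cacna1d (0.90), then Pkhd1l1 (0.89), and the most like Btla was Ephx1 (0.91), then Mboat7 (0.88). Ptpn11 was the most like Cd160 (0.91, and 0.76 without the 3 samples), before Syngr2 (0.90 and 0.58). Tmprss13 and Pycard were the most like Havcr2, at 0.83 and 0.80. Cdk17 and Wls were the most like Ctla4 over all 30 samples, both at 0.85. Without the 3 samples they had 0.69 and 0.68, lower than Cd200 (0.85) and Tigit (0.73), so that this ranking did not hold. The second most like Tigit was Ptms (0.88).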

How the data were processed

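RNA-seq libraries of 200 sorted cells each (SmartSeq2, Nextera XT, no molecular identifiers, 1 sequencing run) had been prepared by the authors. Per the labels, reads were trimmed with cutadapt 3.4, aligned to GRCm39 with STAR 2.6.1b and counted per gene with featureCounts 2.0.1; reads without a unique place were removed, and the annotation release and strand setting are not given in the sources used here. The deposited values are raw counts per gene, not normalized. All columns were mapped to samples (0 left unmapped).

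Libraries of a replicate were summed, except 1 library deposited in 2 groups (both copies left out) and a nearly identical pair (averaged). Amplified reads are not independent molecules, so limits from counts cover counting error only. Counts were analysed in R 4.3.3 with edgeR 4.0.16 (TMM, filterByExpr at a minimum count of 10, all 7 groups in 1 robust quasi-likelihood fit, two-sided test, Benjamini-Hochberg adjustment over 19659 genes). A gene was called at FDR under 0.1 with a log2 fold change over 0.9 in size, the thresholds of the study. The SE is the log2 fold change divided by the square root of F. The script was tested on simulated data. Correlations and plots used log2(CPM + 1). Annotation came from GENCODE M39, which held 54749 of the 55359 genes.

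Alternatives were DESeq2 1.42.0, RLE scaling, no filter, only the groups compared, the replicate number as a block, DESeq2 on separate libraries, other treatments of the 2 repeated libraries, leaving out samples under 9000 genes, and leaving out each sample in turn. Same-numbered samples of S+P C5 and S+P C7 deviated from their group means together (r 0.123 to 0.192 in 5 pairs, 5 of 6 S+P C5 samples correlating best with their own number), and numbers were taken to pair samples for that comparison; the pairing comes from the data and not from the labels. In N+P C1 and N+P C5 (0.0225 to 0.102) and S+P C4 and S+P C5 (0.0974 to 0.182) the lowest fell under 0.1.

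All 8 members were named. Of the lists of binding partners, activating counterparts, other inhibitory receptors, signalling and turnover genes, those called in a contrast were named, with the 2 of lowest unadjusted p in N+P C5 against Naive and the 2 in S+P C5 against Sensitized, and for each member the 2 protein-coding genes most correlated with it. Members and lists were chosen with earlier results of these data known. Marker lists were CD8 T, B, myeloid, dendritic, NK, CD4 and regulatory T, gamma-delta T (at most 11.4 CPM in a sample) and erythroid cells.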

Additional observations from a re-analysis of the deposited data

Results flagged for a closer look

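Of 32 sets of samples of 1 member in 1 group of 4 to 10 samples, 3 held a sample far from the others by Dixon's criterion, where chance gives about 1 in 20. Havcr2 in Sensitized replicate 3 was at 6.07 CPM while the next sample was at 0.0519. Ctla4 in S+P C4 replicate 3 was at 455 CPM while the next was at 135, in a sample with 7436 genes detected in which no other member passed 3 counts. Btla in Sensitized replicate 1 was at 46.9 CPM while the next was at 37.8.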

How the results depend on the processing

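For the 32 of 88 member tests with an unadjusted p under 0.05, 1280 alternative fold changes were computed, of which 1178 kept direction and side of the threshold, 75 passed it newly, 26 no longer passed it, and 1 turned direction, Cd200 in S+P C4 against Sensitized, which was -1.09 with the replicate block. Of 2236 values for the other 56 tests, 104 turned direction, in 20 tests, among them Btla in S+P C4 against Sensitized in 18 fits, Ctla4 in the interaction in 15 and Cd160 in S+P C7 against Sensitized in 14. RLE scaling shifted the median gene by at most 0.062 on the log2 scale. RLE scaling and no filter changed no member's call. The depth limit of 3 counts bears mainly on Havcr2 and on Naive Lag3.

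DESeq2 on summed samples called 1 member in Sensitized against Naive, 4 in N+P C5 against Naive, 3 in S+P C5 against Sensitized, 3 in S+P C7 against Sensitized, 1 in S+P C4 against Sensitized and 1 in S+P C5 against S+P C4. DESeq2 with each library as a sample, which takes technical repeats as replicates, called 2, 5, 6, 5, 4 and 2 in these, 1 in N+P C1 against Naive and 5 in N+P C5 against N+P C1, against 2.47% to 5.46% of genes. With only the groups compared, edgeR called 1 in Sensitized against Naive, 4 in N+P C5 against Naive, 5 in S+P C5 against Sensitized, 3 in N+P C5 against N+P C1 and 1 in the interaction, against 0.735%, 0.438%, 1.06%, 0.386% and 0.184% of genes. Keeping the repeated library in Naive, in S+P C4, or summing all columns gave 0 in S+P C5 against Sensitized each time. Without the 3 samples of few genes the counts were 1 in Sensitized against Naive, 5 in N+P C5 against Naive, 5 in S+P C5 against Sensitized, 3 in S+P C7 against Sensitized, and 1 in S+P C5 against S+P C4. The cause of these differences was not tested.

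With the replicate number as a block, 2 members were called in N+P C5 against Naive (Lag3, Cd200), 2 in S+P C5 against Sensitized (Tigit, Ctla4) and 2 in N+P C5 against N+P C1 (Lag3, Tigit), against 0.0846%, 0.104% and 0.219% of genes. The block changed no other call. Naive or Sensitized mice share only a number with the pregnant ones, the lowest same-numbered correlation being -0.0171 for Sensitized and S+P C5 and 0.00586 for Naive and N+P C5. All 3 N+P C1 samples correlated best with their own number in N+P C5, and 4 of 6 S+P C4 samples with theirs in S+P C5.

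Leaving out each sample in turn gave 0 to 2 called members in N+P C5 against Naive, 0 to 2 in S+P C5 against Sensitized, 0 to 1 in S+P C7 against Sensitized and 0 to 0 in the other 8 contrasts. The higher ends came without S+P C4 replicate 3 in each of these and also without S+P C7 replicate 3 in N+P C5 against Naive, against 0.0408% to 0.219% of genes called in those fits.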

Other observations

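The library deposited with the same counts under a Naive and an S+P C4 label had 17935502 counts and 13174 genes detected. In CPM by that library's total alone, with no TMM factor, Pdcd1 was at 9.48, Lag3 at 10.1, Tigit at 0.112, Havcr2 at 0, Ctla4 at 22.5, Cd160 at 108, Btla at 41.9 and Cd200 at 31.4. Which of the 2 labels it belongs to is not settled by the labels, and only the alternative fits that kept this library used it.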
